A study of Mus musculus with 6 samples.

Results

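The C-type lectin receptor genes of myeloid cells were examined in ATAC-seq peak lists of mouse white blood cells: Clec4a1, Clec4a2, Clec4a3, Clec4d, Clec4e, Clec4n, Clec7a, Clec9a and Clec12a. These 9 genes all lie on chromosome 6. Peaks of the 6 libraries that shared at least 1 bp were merged into 62876 regions. A region was taken for a gene where the summit of at least 1 of its peaks lay in the gene body or within 3 kb of an annotated start. Distances are those of the median summit. The rule found 18 regions of the 62876, at least 1 for each gene, and used no measured height. The genes themselves were chosen with earlier results of these data known.

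ATAC-seq marks open chromatin by the sites where the Tn5 transposase can insert adapters. The blood came from male C57BL/6j mice, and red cells were lysed before the unsorted leukocytes were taken. Control libraries (n = 3) were compared with libraries of high-altitude de-acclimatization, HADA (n = 3). HADA mice had lived in a hypobaric hypoxia chamber and were then moved back to normoxia, and all groups had free food and water. The labels give neither the animal behind each library nor the time in normoxia at sampling, so a p-value here measures the spread between these libraries. The comparison asks whether these receptor loci were more or less open after the return from hypoxia.

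C-type lectin receptors are surface proteins with which myeloid cells bind sugars and other patterns on microbes and on damaged cells. Clec4n (Dectin-2), Clec4e (Mincle) and Clec4d (MCL) signal through the Fc receptor gamma chain, encoded by Fcer1g, to the kinase Syk and the adaptor Card9. Clec7a (Dectin-1) binds fungal beta-glucan and carries its own activating motif in the cytoplasmic tail. Clec4a2 (DCIR) and Clec12a (MICL) carry an inhibitory motif that recruits phosphatases. Clec9a (DNGR-1) binds exposed actin of dead cells and is a receptor of cross-presenting dendritic cells.

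To show the DNA behind the peaks, the 201 bases around the summit are given for 5 regions that had a peak in every library and lie outside annotated exons of the genes. They are GRCm39 plus-strand sequence, with letters in capitals where a searched transcription factor motif was matched. Each row is named by the gene and by the distance of the summit from the 5′ end of the gene.
Clec4n, 2030 bp upstream, chr6:123204672-123204872: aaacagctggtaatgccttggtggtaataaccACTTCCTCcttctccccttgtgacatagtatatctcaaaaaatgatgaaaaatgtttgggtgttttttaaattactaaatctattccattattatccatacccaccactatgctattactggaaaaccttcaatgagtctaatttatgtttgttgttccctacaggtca
Clec4d, 1796 bp upstream, chr6:123237174-123237374: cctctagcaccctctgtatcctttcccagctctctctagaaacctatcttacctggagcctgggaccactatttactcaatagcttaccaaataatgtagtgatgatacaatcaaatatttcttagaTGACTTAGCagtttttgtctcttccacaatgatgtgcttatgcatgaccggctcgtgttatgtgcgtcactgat
Clec4d, 4092 bp downstream, chr6:123243062-123243262: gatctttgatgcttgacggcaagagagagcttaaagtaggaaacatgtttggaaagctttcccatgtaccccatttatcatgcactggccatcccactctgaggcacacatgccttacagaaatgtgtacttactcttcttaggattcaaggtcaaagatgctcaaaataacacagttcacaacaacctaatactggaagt
Clec7a, 1175 bp downstream, chr6:129448467-129448667: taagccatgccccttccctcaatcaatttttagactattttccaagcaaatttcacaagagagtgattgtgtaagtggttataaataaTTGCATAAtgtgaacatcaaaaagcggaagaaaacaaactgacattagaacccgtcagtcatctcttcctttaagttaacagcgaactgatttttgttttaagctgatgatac
Clec4a1, 2386 bp downstream, chr6:122898408-122898608: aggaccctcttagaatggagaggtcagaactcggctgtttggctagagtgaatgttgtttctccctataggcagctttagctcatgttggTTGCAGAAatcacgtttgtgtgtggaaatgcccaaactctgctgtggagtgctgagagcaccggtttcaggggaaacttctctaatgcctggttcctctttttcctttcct

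The capitals mark a PU.1 match (GAGGAAGT, here on the minus strand) at Clec4n, an NRF2-type match (TGACNNNGC) at Clec4d and C/EBP matches (TTGCNNAA) at Clec7a and Clec4a1. Both strands were searched, and the intronic Clec4d window held none of the 6 motifs. Over the 18 windows, C/EBP letters were found in 4, and PU.1, NRF2, AP-1 (TGANTCA) and RUNX (TGTGGTT) letters in 1 window each, while IRF letters were found in 0. Of all 62876 regions, windows of the same length held C/EBP letters in 8.78%, NRF2 letters in 8.14%, RUNX letters in 7.11%, AP-1 letters in 5.65%, PU.1 letters in 4.39% and IRF letters in 2.96%. AP-1 and NRF2 letters can overlap. A match describes the letters of a window and says nothing of binding.

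The genes are close relatives, so the windows were compared with one another. The 50 bases at each of the 18 summits occur once in the genome. One pair of windows shared a long run of bases: the 2 Clec12a windows at 1884 bp and 7136 bp from the gene start had 20 bases in common, and no other pair shared more than 12. Over an ungapped stretch of 65 bases, the pair was identical at 57 (87.7%). This stretch is printed with the shared run in capitals, from the first intron in one case and from just beyond the first exon of an alternative transcript in the other.
Clec12a, near 1884 bp, chr6:129321446-129321510: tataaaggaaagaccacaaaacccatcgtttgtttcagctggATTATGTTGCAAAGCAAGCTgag
Clec12a, near 7136 bp, chr6:129326823-129326887: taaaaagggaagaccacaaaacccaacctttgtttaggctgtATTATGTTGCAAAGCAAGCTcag

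Depth sets what a peak list can show. The lists held 34045 to 41475 peaks in control against 44044 to 45799 in HADA libraries, and the genome-wide background pileup, a measure of relative depth, was 1.69 to 2.05 in control against 1.99 to 2.34 in HADA libraries. The lowest summit pileup called was 7 to 9 reads. Heights below are read pileups at the summit or that pileup divided by the library's genome-wide background. The log2 differences are HADA minus control after each library was centred on its median region with a peak in all 6 libraries. With division by the background, that median region was itself 0.34 higher in HADA on the log2 scale, and the differences are relative to it.

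Most of the lectin regions were lower in HADA. Of the 18 regions, 11 had a peak in all 6 libraries and could be tested for height. By limma with Benjamini-Hochberg adjustment over all 23970 such regions, 9 of the 11 (81.8%) were lower in HADA at 0.05, where 24.8% of all tested regions were lower. In the other direction the count was 0 of 11, since all 11 differences were below 0, where 18.6% of all tested regions were higher. The median log2 difference was −1.79 over the 11 regions and −0.04 over all tested regions. When pileups were divided by the background instead, 8 of the 11 were lower and 0 were higher, and the split over all regions turned from 4451 higher and 5937 lower to 7710 higher and 4216 lower. All 11 fall below 0 on the centred scale in the plot of the differences.

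**Figure D1:**
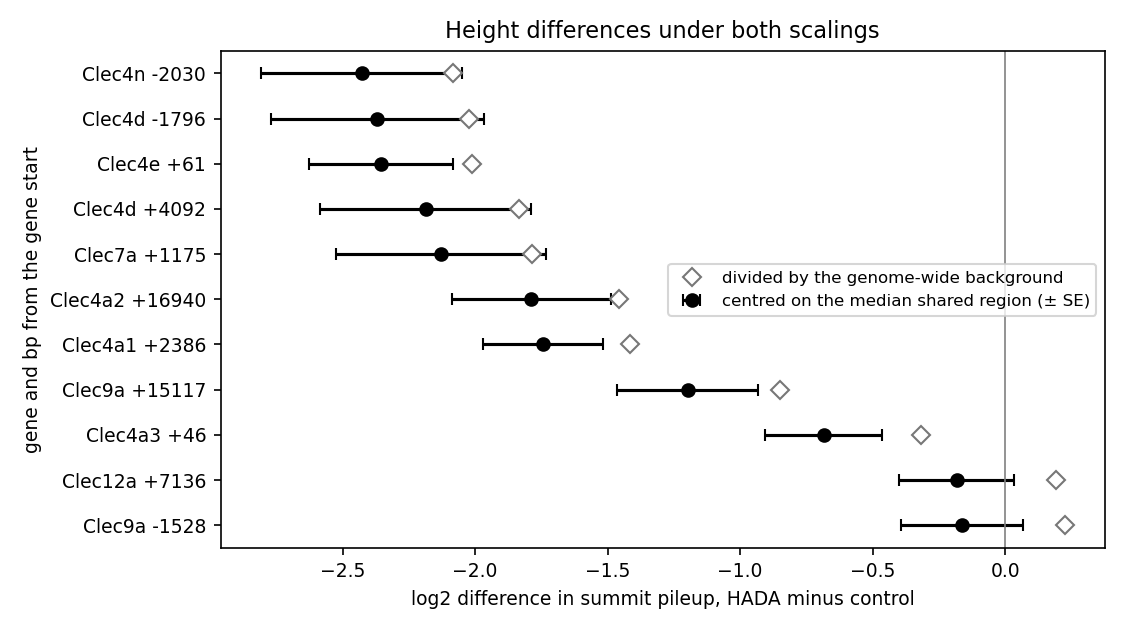
The horizontal axis gives the log2 difference in summit pileup, HADA minus control, for the 11 lectin regions with a peak in every library, one row per region. Filled circles are centred on the median shared region with bars of 1 standard error and open diamonds are divided by the genome-wide background. Clec4n, Clec4d, Clec4e and Clec7a lie between −2.43 and −2.13, Clec12a and the upstream Clec9a region near 0, where the sign turns with the scaling.

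The spread between libraries was set against these differences. Divided by the background, 9 of the 11 regions were lower in every HADA than in every control library, where 17.4% of all tested regions had this pattern and 42.6% had the opposite one. Control 3 was the highest control library at 9 of the 11 regions. HADA 1 was the highest HADA library at 8 and HADA 3 the lowest at 8, so the libraries kept much of their order from gene to gene.

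**Figure D2:**
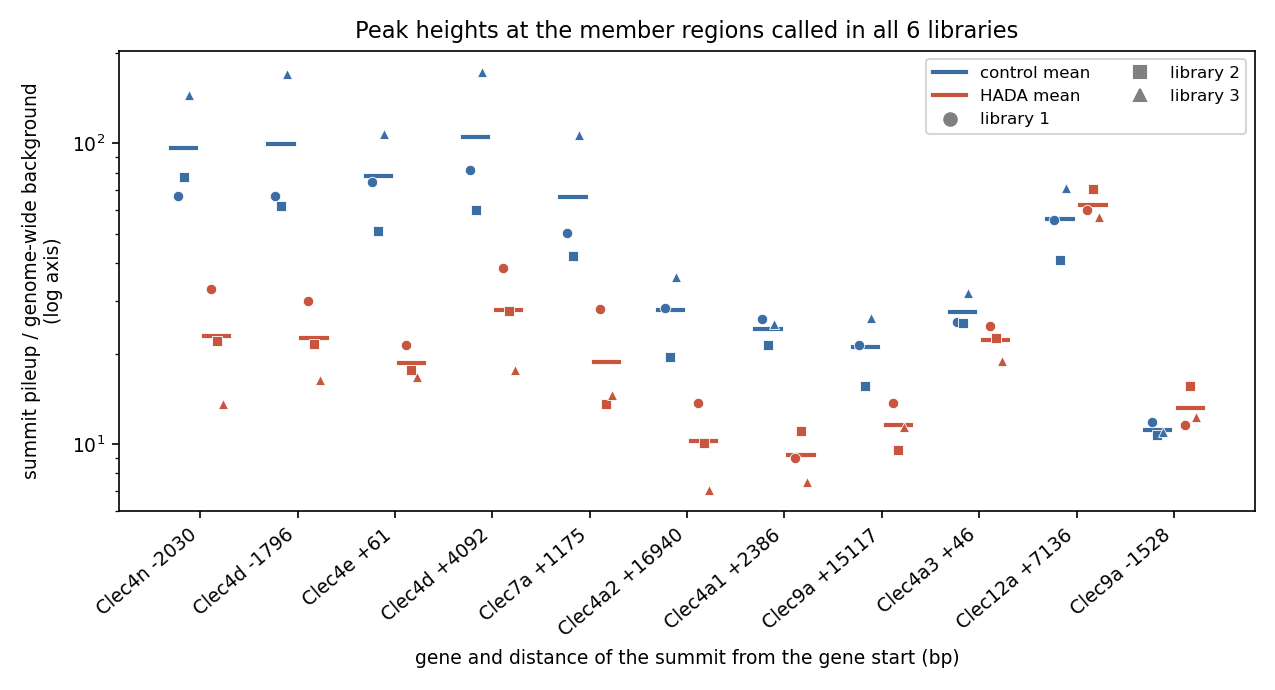
The vertical axis, on a log scale, gives the summit pileup divided by the genome-wide background at the 11 lectin regions with a peak in every library. Points are libraries (circle 1, square 2, triangle 3), blue for control and red for HADA, and lines are group means. Control 3 reaches 173 at Clec4d, while the groups overlap only at Clec12a and at the upstream Clec9a region.

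The receptors that signal through the Fc receptor gamma chain had the greatest differences. Clec4n (chr6:123206802-123223980, plus strand) had its tallest region 2030 bp upstream of the gene, at chr6:123204333-123205126, the first sequence printed. Its summit pileup was 113, 159 and 266 in control against 77, 44 and 31 in HADA libraries. Every HADA library lay below every control library, and the highest control value was that of control 3. The log2 difference was −2.43 ± 0.38 (SE, limma adjusted p = 0.006), and over background the height was 4.22 times as high in control as in HADA, or 3.15 times without control 3.

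Clec4n also had weaker regions. The region 126 bp upstream of the gene (chr6:123206441-123207279) had pileups of 44, 40 and 86 in control, 22 in HADA 1 and 17 in HADA 3, with no peak in HADA 2. The intronic region 14526 bp downstream (chr6:123221002-123221429) had pileups of 16, 18 and 14 in control and no peak in any HADA library. A HADA peak there below the limit of calling, 8 to 9 reads in those libraries, would not have been listed. That region was the 1 lectin region with peaks in all control and no HADA libraries, a pattern of 1.88% of all regions, and 0 lectin regions had the opposite pattern, which 7.01% of all regions had.

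Clec4d (chr6:123239070-123252230, plus strand), the partner of Mincle, was opened at 3 places. Upstream by 1796 bp, at chr6:123236955-123237503, the pileup was 113, 127 and 311 in control against 70, 43 and 37 in HADA libraries. In the intron 4092 bp downstream of the gene start, at chr6:123242748-123243477, it was 138, 123 and 317 in control against 90, 55 and 40 in HADA libraries. At both places control 3 stood far above the other controls and all HADA libraries were below all controls. The log2 differences were −2.37 ± 0.40 and −2.19 ± 0.40 (SE, limma adjusted p = 0.0061 and 0.0065). For the upstream region, the height over background was 4.41 times as high in control as in HADA, which fell to 2.85 without control 3.

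The third Clec4d region, 186 bp upstream (chr6:123238465-123239348), lies in an exon of the lncRNA Gm67930, which runs on the opposite strand. Its pileup was 107, 105 and 229 in control, 62 in HADA 1 and 32 in HADA 2, with no peak in HADA 3. The background of the surroundings was 20.9 reads in HADA 1 and 11.5 in HADA 2. A HADA 3 peak above the lowest pileup called in that library could therefore also be unlisted there. Summed over its regions, Clec4d had 284 ± 161 background units in control against 64.7 ± 30.5 in HADA libraries (SD, n = 3 each), with an exact permutation p of 0.1. A two-sided permutation of 3 libraries against 3 cannot go below 0.1.

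Clec4e (chr6:123258748-123266829, minus strand) encodes Mincle, a receptor for mycobacterial glycolipid. The region over its first exon, at chr6:123265947-123267280, had pileups of 126, 105 and 197 in control against 50, 35 and 38 in HADA libraries. No HADA library reached the lowest control library, and the log2 difference was −2.36 ± 0.27 (SE, limma adjusted p = 0.006). The summit lay 54 to 132 bp inside the gene in 4 libraries and 282 and 214 bp upstream of it in HADA 1 and HADA 2. A further exonic region, 2116 bp downstream at chr6:123264492-123265608, was called in control 3 only, with a pileup of 66.

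Clec7a (chr6:129438554-129449742, minus strand) had 1 wide region of 2138 bp, chr6:129447879-129450016, with its main summit in an intron 1175 bp downstream of the start. The pileup there was 85, 87 and 195 in control against 66, 27 and 33 in HADA libraries. HADA 1 came closest to the controls but stayed below them. The log2 difference was −2.13 ± 0.40 (SE, limma adjusted p = 0.0067). A second summit within the region, close to the gene start, was called in control 1 with 65 reads, control 2 with 71, HADA 1 with 43 and HADA 2 with 24. In control 3 a single peak spanned both places, so no second summit could be listed there, while the HADA 3 peak did not reach the gene start.

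The Clec4a genes lie nearer the Clec4a1 end and the middle of the Clec4 cluster, and in the control libraries their tallest peaks were lower than those of Clec4n, Clec4d and Clec4e. Clec4a2 (chr6:123083387-123120958, plus strand) had its main region 16940 bp from the first start and 54 bp from an alternative start, at chr6:123099672-123100672, where the lncRNA Gm67020 overlaps on the minus strand. Its pileup was 48, 40 and 66 in control against 32, 20 and 16 in HADA libraries, apart between the groups, with a log2 difference of −1.79 ± 0.30 (SE, limma adjusted p = 0.0061). A small intronic region 6559 bp downstream was called in control 2 only, with a pileup of 10. Peak lists carry no strand, so accessibility of Clec4a2 and of the antisense gene cannot be told apart here.

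Clec4a1 (chr6:122896122-122911578, plus strand) had the narrowest range of control pileups among the lower regions. Its intronic region at chr6:122898133-122899134, 240 bp before an alternative start, had pileups of 44, 44 and 46 in control against 21, 22 and 17 in HADA libraries. Control values lay within a few reads of each other, and the log2 difference was −1.74 ± 0.23 (SE, limma adjusted p = 0.006). Over background the height was 2.64 times as high in control as in HADA, and 2.59 times without control 3.

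Clec4a3 (chr6:122929380-122948807, plus strand), the next gene, had its region on the first exon at chr6:122929087-122929992. The pileup was 43, 52 and 58 in control against 58, 45 and 43 in HADA libraries, so the raw pileups overlapped. After centring the log2 difference was −0.68 ± 0.22 (SE, limma adjusted p = 0.034). This call was lost when pileups were divided by the background, where the difference was −0.32 with a limma adjusted p of 0.405. It was also lost with the replicate number as a block, and without control 2, HADA 1, HADA 2 or HADA 3. Within each library, free of any scaling, the Clec4a3 pileup was 0.977, 1.18 and 1.26 times the Clec4a1 pileup in control against 2.76, 2.05 and 2.53 times in HADA libraries. That ratio, chosen after its values were seen, was 2.14-fold higher in HADA, and the groups did not overlap (exact permutation p = 0.1, n = 3 each).

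Clec12a, an inhibitory receptor of granulocytes, monocytes and dendritic cells, had 1 region that could be tested, and it was not called. Clec12a (chr6:129319654-129342266, plus strand) had its tall region 7136 bp from the first start and 85 bp from an alternative start, at chr6:129326448-129327308. The pileup was 94, 84 and 130 in control against 141, 140 and 129 in HADA libraries. The log2 difference was −0.18 ± 0.22 (SE, limma adjusted p = 0.516) after centring and +0.19 (limma adjusted p = 0.572) over background, so its sign turned with the scaling and neither passed the test. Of the other Clec12a regions, the intronic one at 1884 bp (chr6:129321194-129321788) had pileups of 13 and 10 in control 1 and control 2, no peak in control 3, and 24, 22 and 23 in HADA libraries. It was the 1 lectin region found in more HADA than control libraries, while 6 regions were found in more control libraries, where 35.5% and 22.7% of all regions had these patterns. This region shares the 65-base stretch above with the tall region. The intronic region at 20771 bp was called in control 1 with 20 reads and in control 3 with 17, and in no HADA library.

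The ratio of Clec12a to Clec4d pileups was free of scaling, since both were read in the same library. The tall Clec12a region had 0.681, 0.683 and 0.410 times the pileup of the intronic Clec4d region in control against 1.57, 2.55 and 3.23 times in HADA libraries. In every control library Clec4d was the taller and in every HADA library Clec12a was. The ratio was 4.07-fold higher in HADA (n = 3 each, exact permutation p = 0.1), and was chosen after its values were seen. Clec4n against Clec4d and Clec4d against Clec4e gave ratios that overlapped between the groups (exact permutation p = 0.3 and 0.7).

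Clec9a (chr6:129385825-129401726, plus strand) shares its ground with Clec1a and Clec1b. The region 1528 bp upstream (chr6:129383931-129384731) lies in exons of Clec1a and Clec1b, and had pileups of 20, 22 and 20 in control against 27, 31 and 28 in HADA libraries. Its log2 difference was −0.16 ± 0.23 (SE, limma adjusted p = 0.585) after centring and +0.22 over background, again with no call on either scale. The other region, 15117 bp downstream (chr6:129400563-129401427) in exons of Clec9a and Clec1a, had pileups of 36, 32 and 48 in control against 32, 19 and 26 in HADA libraries. After centring the log2 difference was −1.20 ± 0.27 (SE, limma adjusted p = 0.0098), and over background it was −0.85 (limma adjusted p = 0.0253) with every HADA library below every control library. Both regions could serve either gene, and the peak lists cannot assign them.

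**Figure D3:**
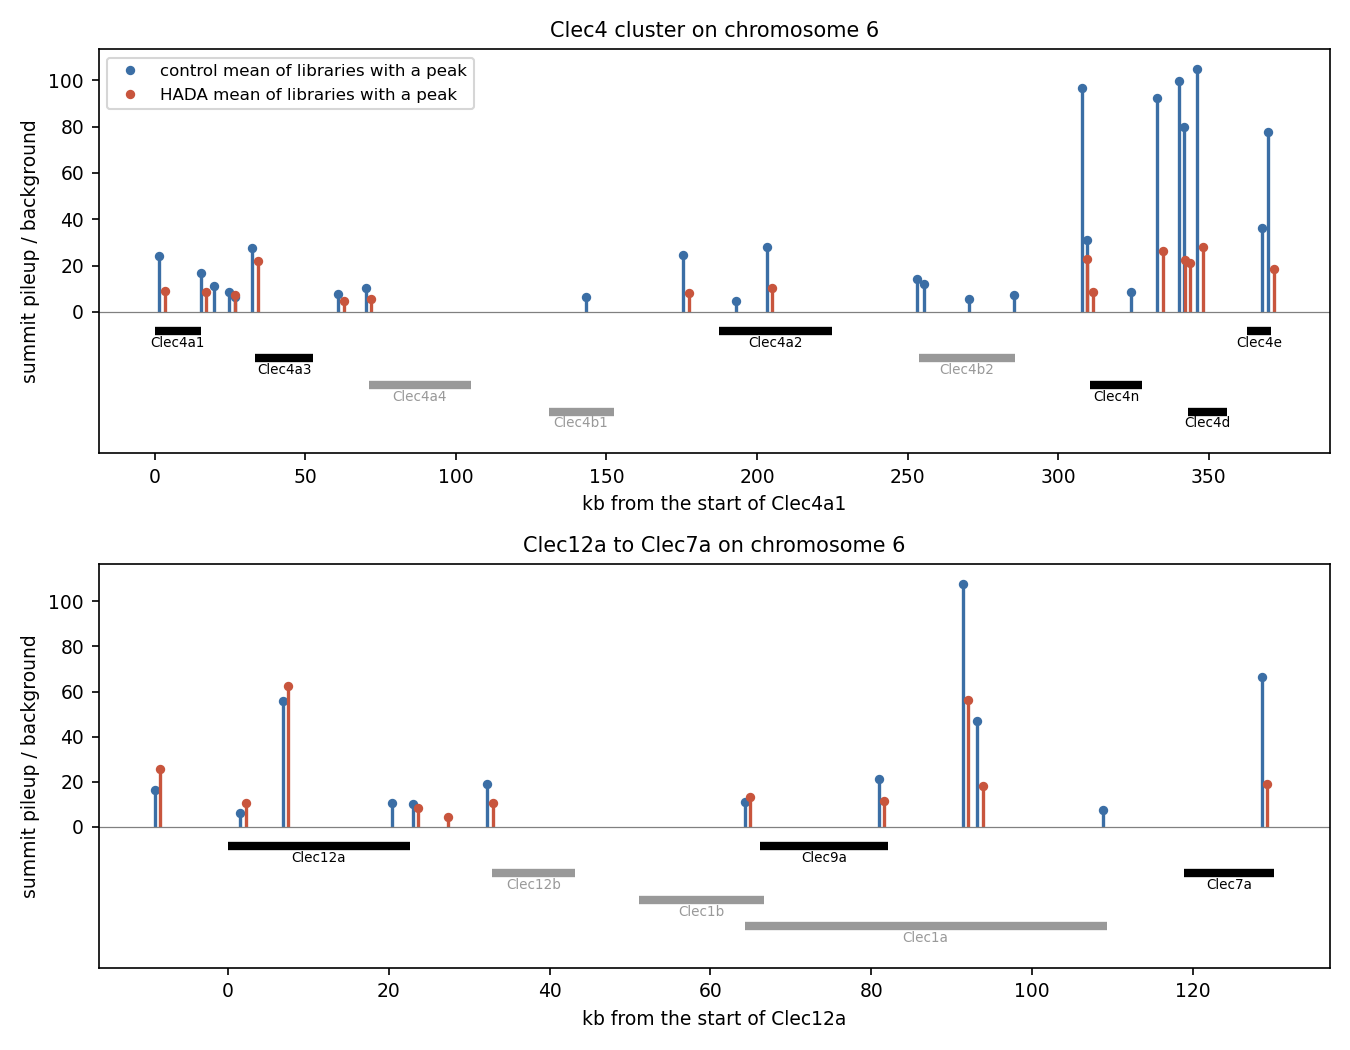
Stems give the mean summit pileup over background of the libraries with a peak (blue control, red HADA) along the Clec4 cluster and along Clec12a to Clec7a, in kb from the start of Clec4a1 and of Clec12a. Black bars are the genes described and grey bars their neighbours, and the stems of a region are drawn slightly left and right of its summit so that both can be seen. In the Clec4 cluster the tall control stems stand at the Clec4n, Clec4d and Clec4e end, at about 77.8 to 105 over HADA stems of 18.5 to 27.9, and in the other panel the tallest stands in Clec1a.

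The tallest regions of the Clec4 cluster lay at its Clec4n, Clec4d and Clec4e end. The Clec4 cluster spans 370.7 kb from Clec4a1 to Clec4e and held 25 regions, 12 of them in the genes described. Another 2 of its regions had a peak in every library, and both were lower in HADA. The taller of them, 333.8 kb from the start of Clec4a1 and between Clec4n and Clec4d, had a mean of 92.4 background units in control against 26.4 in HADA libraries (log2 difference −2.10, limma adjusted p = 0.006). The other, 176.4 kb from that start and upstream of Clec4a2, had means of 24.4 and 8.16 (log2 difference −1.85, limma adjusted p = 0.0064). In the span of 130.1 kb from Clec12a to Clec7a, 1 further region had a peak in every library, at 91.7 kb from the start of Clec12a and within Clec1a, and it was lower in HADA (log2 difference −1.30, limma adjusted p = 0.0106). Its mean was 108 background units in control and 56.1 in HADA libraries.

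The number of peaks at the 9 genes was 17, 17 and 16 in control against 15, 14 and 13 in HADA libraries. The means were 16.7 ± 0.577 and 14.0 ± 1.00 (SD, n = 3 each), with an exact permutation p of 0.1 and the groups apart. HADA libraries had more peaks in the genome as a whole, and fewer here. When only regions within 3 kb of a start were counted, the difference of −2.67 peaks shrank to −0.667 (n = 3 each, exact permutation p = 0.7).

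The comparison changed when height was taken relative to the local background. The fold enrichment that accompanies each peak is taken over the surrounding background, and that background fell with the peaks. At the intronic Clec4d region the fold was 4.62, 4.02 and 4.62 in control against 4.94, 5.33 and 4.49 in HADA libraries, while the local background was 29.1, 29.9 and 67.9 reads in control against 17.4, 9.50 and 8.13 in HADA libraries. When regions were ranked by fold within each library and the ranks tested with limma, 1 of the 11 lectin regions was lower and 0 were higher, where 5.82% and 7.64% of all tested regions were lower and higher. The called region was that of Clec4a1 (difference in normal scores −0.68, limma adjusted p = 0.048). The lower height of the Clec4n, Clec4d, Clec4e and Clec7a regions was measured for the summit and its surroundings together, and the summit against its surroundings gave no call there.

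The signalling proteins downstream of these receptors were read from a list of 25 genes, all with peaks in every library. Of their 72 regions present in all libraries, 12 (16.7%) were lower and 5 (6.94%) were higher in HADA, and 55 did not pass, against 24.8% and 18.6% of all tested regions. The balance turned with the scaling: divided by the background 10 were lower and 12 higher, and by rank of the fold 6 were lower and 5 higher. By gene, after centring, 11 of the 25 had only lower regions among those called, 4 had only higher ones and 10 had none called. The median log2 difference was −0.17 after centring and +0.21 over background.

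Lower regions were found at Fcer1g, Card9, Syk and Vav3, while Bcl10 and Malt1 had none called. Fcer1g, the shared gamma chain of Clec4n, Clec4d and Clec4e, had pileups of 121, 107 and 171 in control against 69, 47 and 38 in HADA libraries, with a log2 difference of −1.99 ± 0.26 (SE, limma adjusted p = 0.006). All HADA values were below all control values, much as at the receptors. The adaptor Card9 had 1 lower region, with pileups of 53, 36 and 59 in control against 30, 27 and 24 in HADA libraries (log2 difference −1.44, limma adjusted p = 0.0063), and another with a difference of +0.22 (limma adjusted p = 0.291). The kinase Syk had 2 lower regions (log2 differences −1.55 and −1.45) among several with differences near 0. The exchange factor gene Vav3 had 1 lower region, at −1.30 on the log2 scale (limma adjusted p = 0.0063).

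The regions called higher belonged to 4 genes. Map3k7, encoding the kinase TAK1, had differences of 1.43 and 0.59, Nfatc1 of 0.86, Plcg2, encoding a phospholipase of B cell and myeloid receptors, of 0.81, and Inpp5d, encoding the phosphatase SHIP-1, of 0.56 on the log2 scale (limma adjusted p = 0.0064 to 0.018). Each of these was a single region in Nfatc1, Plcg2 and Inpp5d, and their other regions present in every library did not pass. The other Inpp5d regions had differences of −0.43 to −0.08 and the other Nfatc1 regions of −0.61 to −0.13.

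Other lectin-like receptor genes of chromosome 6 were read in the same way. Of 14 such genes, Clec12b and Klrk1 had no peak, and 9 regions had a peak in every library, of which 3 were higher, 3 lower and 3 did not pass after centring. Divided by the background 4 were higher and 2 lower, and limma on the rank of the fold called 0 in either direction. Higher were 2 regions of Clec2i (log2 differences 0.91 and 0.44) and 1 of Cd69, an early activation marker (0.83). Lower were 2 regions of Clec1a (−1.30 and the region of −1.20 that it shares with Clec9a) and 1 of Olr1, the receptor for oxidized LDL (−0.72). The limma adjusted p of these 6 ranged from 0.0079 to 0.050.

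Marker genes of blood cell types moved with the same contrast. The sample titles name peripheral blood, and the methods leukocytes, whereas the text of the study also speaks of mononuclear cells, a preparation that holds few neutrophils. Peaks were found at 6 to 9 of 11 neutrophil genes, 9 to 11 of 11 monocyte genes, 7 to 9 of 9 T cell genes and 6 to 9 of 9 B cell genes. Summed over background, the 11 neutrophil genes had 517, 327 and 891 in control against 302, 219 and 155 in HADA libraries, with no peak at the granule genes Camp and Ngp in any library. All 8 neutrophil regions present in every library were lower in HADA after centring (median log2 difference −1.61), 6 were lower when divided by the background, and by limma on the rank of the fold 0 were lower and 1 was higher. In bulk leukocytes, fewer cells of a type and less open chromatin per cell cannot be told apart.

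The other lists moved less, or the other way. The 11 monocyte genes had 435, 295 and 366 in control against 366, 313 and 271 in HADA libraries, which overlapped. As a share of the summed pileup of all peaks they were lower in every HADA library. That share was 0.0277%, 0.0242% and 0.0250% in control against 0.0200%, 0.0178% and 0.0169% in HADA libraries. Of 11 monocyte regions present in every library, 7 were lower and 2 higher after centring, 3 lower and 2 higher when divided by the background, and 1 lower and 0 higher by rank of the fold. The 9 dendritic cell genes had 588, 387 and 369 in control against 852, 830 and 802 in HADA libraries, with no peak at Siglech and Cd209a. The 9 B cell genes had 609, 351 and 79.3 in control against 1675, 1674 and 1600 in HADA libraries, so that control 3, the highest library at most lectin regions, was the lowest by far at B cell genes. The T cell list was 387 to 515 in control against 697 to 733 in HADA libraries. The summed NK cell, eosinophil and basophil, and erythroid and platelet lists were also higher in every HADA library. Divided by the background, 42.6% of all tested regions had this pattern. After centring, all 8 B cell regions in every library were higher. Of 15 dendritic cell regions 7 were higher and 2 lower, and of 11 T cell regions 3 were higher and 1 lower. Of 3 erythroid and platelet regions 2 were higher, and the 1 NK cell region was not called. The rank of the fold called 0 B cell and 0 dendritic cell regions, and 1 T cell and 2 erythroid and platelet regions as higher. Of the 3 eosinophil and basophil regions present in every library, 2 were lower and 1 higher after centring (median log2 difference −0.58), while 0 were lower and 1 was higher by limma on the scale of the sums (median −0.21), and the rank of the fold called none. Taken as a share of the summed pileup of all peaks, the NK cell sums overlapped between the groups. Of the NK cell, eosinophil and basophil, and erythroid and platelet lists, Klra8, Ccr3, Epx, Mcpt8, Hba-a1 and Gp9 had no peak.

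**Figure D4:**
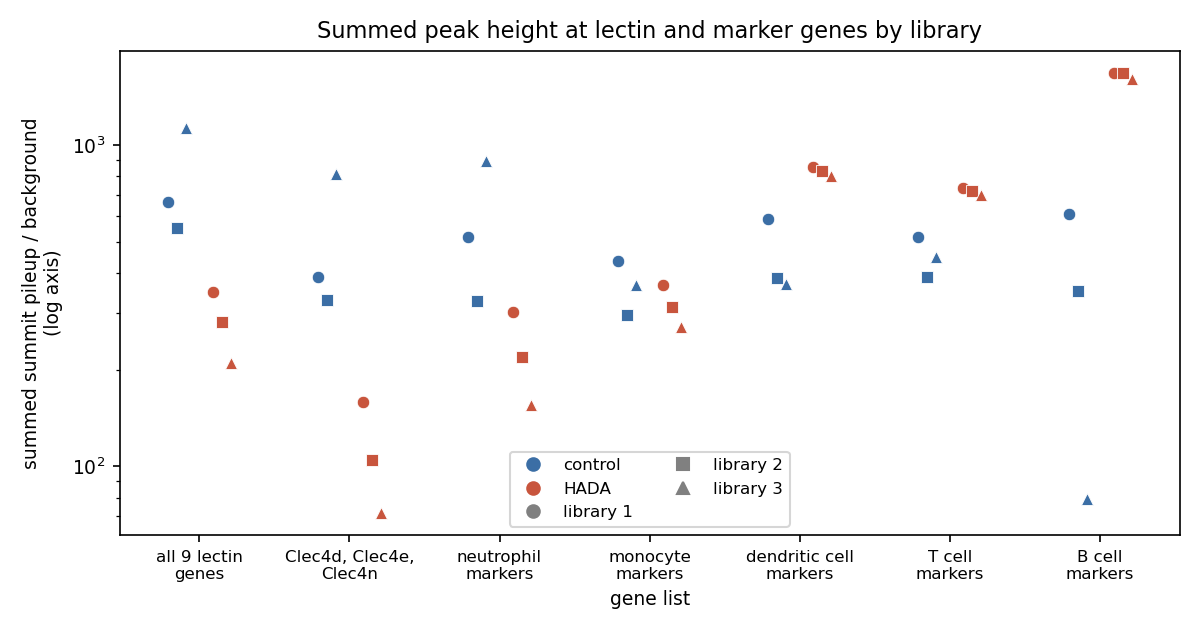
The vertical axis, on a log scale, gives the summed summit pileup over background for each library (circle 1, square 2, triangle 3, blue control, red HADA) at the lectin genes and at the marker lists. The lectin and neutrophil sums of HADA lie below those of control, the monocyte sums overlap, and the dendritic cell, T cell and B cell sums lie above.

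The lectin sums were also set against the neutrophil and monocyte sums of the same library. The sum over Clec4d, Clec4e and Clec4n was 389, 330 and 812 in control against 159, 105 and 71.7 in HADA libraries. That sum was 0.753, 1.01 and 0.911 times the neutrophil sum of the same library in control against 0.525, 0.478 and 0.463 times in HADA libraries. The ratio was 0.891 ± 0.129 and 0.489 ± 0.0321 (SD, n = 3 each), lower in every HADA library with an exact permutation p of 0.1. Against the monocyte list the same sum was 0.895 to 2.22 in control against 0.265 to 0.433 in HADA libraries. The sum over all 9 lectin genes gave 1.27 to 1.68 times the neutrophil sum in control against 1.15 to 1.36 times in HADA libraries, which overlapped (exact permutation p = 0.5). These ratios were chosen after their values were seen, and the part of each cell type in the lectin differences was not tested.

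Summed over background by gene, the height was 136 ± 55.4 in control against 28.5 ± 11.96 in HADA libraries for Clec4n, 89.8 ± 48.1 and 18.5 ± 2.48 for Clec4e, and 90.8 ± 14.9 and 28.9 ± 16.3 for Clec7a (SD, n = 3 each, exact permutation p = 0.1). The Clec7a sum adds 1 listed peak in control 3 and HADA 3 and 2 in each other library. At its main summit alone the height was 66.4 ± 35.0 in control and 18.8 ± 8.19 in HADA libraries. A peak that was not called adds nothing to a sum. Smaller sums were found at Clec4a2, with 29.6 ± 5.95 and 10.3 ± 3.32, and at Clec4a1, with 24.2 ± 2.46 and 9.17 ± 1.79. The differences at Clec9a, with 32.2 ± 5.50 and 24.7 ± 0.818, and at Clec4a3, with 27.5 ± 3.64 and 22.1 ± 2.97, were the least of the lower genes. Clec12a had 67.1 ± 18.7 in control against 72.9 ± 7.55 in HADA libraries (n = 3 each, exact permutation p = 0.8). By the group means of these sums Clec4d led in control and Clec12a in HADA libraries, although in HADA 1 the Clec4d sum of 94.9 was above the Clec12a sum of 70.5.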

How the data were processed

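Peripheral-blood leukocytes of 3 control and 3 HADA libraries were profiled by ATAC-seq, and groups and replicate numbers came from the labels. Reads were cleaned by the authors with Trimmomatic and mapped to GRCm39 by Bowtie2. Picard served to remove duplicates, and MACS2 called the peaks of each library alone. Per the submitters' processing notes FastQC, featureCounts and bedtools were also used. Tool versions, MACS2 options and any Tn5 shift are not given in the sources used here. In the deposited lists every peak has a score, which was 10 times its −log10 q-value, together with the fold enrichment of the summit and the −log10 p-value.

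From the deposited fold and −log10 p-value, the whole-number summit pileup and the local background were solved, which returned 100% of peaks within 0.05. The lowest local background of a library is its genome-wide background. Peaks on 21 main chromosomes were merged at 1 bp. Regions with a peak in all 6 libraries were tested with limma 3.58.1 (R 4.3.3, trend) on log2(pileup + 1), centred per library on the median region, with Benjamini-Hochberg adjustment at 0.05. The fit was also run on simulated data, and the outcome of that run is not given here. Differences are on that scale and understate changes of low peaks. Values per library were compared by two-sided exact permutation tests. Python 3.11.15, numpy 2.4.6, pandas 2.3.3 and scipy 1.17.1 were used, with GENCODE vM39 annotation and GRCm39 sequence, which fitted the lists: 0 peaks ended beyond a chromosome and 9.54% of summits lay within 100 bp of a gene 5′ end. A shift by 100000 bp left 0.822%.

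All 9 genes were named with all of their regions. From the signalling and neighbouring lists, genes with called regions were named, at most 5 per direction by smallest p. A gene that this rule names is not reported here. The members and lists were chosen with earlier results of these data known. Alternatives were the rank of the deposited fold, division by the genome-wide background, a −log10 q of at least 5, peaks joined only at 50% overlap, other distances from a start, the same number of strongest peaks per library (34045), a replicate block and leaving out each library. Depth was read as relative background, and total reads were not analysed here.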

Additional observations from a re-analysis of the deposited data

How the results depend on the processing

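Among the settings run, the rank of the deposited fold changed the most lectin calls. It left 1 lectin region lower, a median over the lectin regions of −0.000335 normal scores, and 1832 regions higher and 1396 lower over all. Under it the Clec4a3 (0.21), intronic Clec4d (0.21), Clec7a (0.23), Clec12a (0.37) and upstream Clec9a (0.19) regions turned positive in normal scores, none past the test. The other uncalled regions stayed negative, at −0.68 for Clec4a2 (limma adjusted p = 0.0929), −0.56 for Clec4n (0.114), −0.26 for the downstream Clec9a region, −0.07 for Clec4e and −0.000335 for the upstream Clec4d region. A fold over local background differs from a height by construction. Division by the background gave 7710 regions higher, and turned Clec12a to 0.19 and the upstream Clec9a region to 0.22 on the log2 scale. Over the fits without 1 library the Clec12a difference ran from −0.32 to 0.0159, the latter without control 3 (limma adjusted p = 0.937). Leaving out 1 library at a time gave 1506 to 5434 regions higher, 3100 to 6468 lower, 8 to 9 lectin regions lower, medians of −1.98 to −1.63, and 1 to 2 lectin regions in all control and no HADA libraries. The 1506 and 3100 came without HADA 2, and without HADA 1 and HADA 3 the higher regions numbered 2346 and 2130. That last count of lectin regions was 2 without control 2, 2 with 34045 peaks from each list and 0 with starts within 3 kb only. The peak difference of −2.67 ranged from −3.17 to −2.17 without 1 library.

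The Clec4a3 call was the least firm: it was lost without control 2 (limma adjusted p = 0.064) and without HADA 1, HADA 2 or HADA 3 (0.0727, 0.105 and 0.127). The log2 differences of these fits were −0.68, −0.74, −0.67 and −0.60, against −0.68 with all libraries. With the replicate block the Clec4a3 call was lost too (limma adjusted p = 0.0674), leaving 8 lectin regions lower, with 3356 regions higher and 5864 lower over all, and the block changed no other lectin call. The labels do not say whether the replicate numbers pair the samples. Deviations of libraries with the same number correlated at −0.0797, 0.0833 and −0.381. Those of libraries with different numbers ranged from −0.481 to 0.493. The former lie within the latter range, so they cannot decide whether the numbers pair the samples. With 3 libraries a group, single values could not pass 0.05, and a region missing from a list may lie just under its limit of calling.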
